A study of Ovis aries with 2 samples.

Results

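CD4 T-cell barcodes that carried GATA3 but no CCR7 or FOXP3 were taken from single-cell transcriptomes of sheep blood. A barcode stands for 1 droplet, usually 1 cell, and its expression is counted in unique molecular identifiers (UMIs), each of which tags 1 captured RNA molecule. Members had at least 1 UMI of CD3D or CD3E, at least 1 of CD4, none of CD8A or CD8B, at most 1 of SOX13 and RHEX together, at most 1 of the B-cell genes MS4A1, CD79B and PAX5 together, no CCR7, no FOXP3 and at least 1 GATA3 UMI. CD3G, which the selection also names, has no entry in the count tables. In all, 1444 of 17540 barcodes with at least 200 genes and at most 15% mitochondrial UMIs were members, out of 17884 deposited. The A.G.-ES library held 1146 of them and the untreated library 298.

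The study embedded a drug-eluting suture carrying astragaloside IV and glycyrrhizic acid at the ST36 acupoint of weaned lambs, and its title names the balance of regulatory and Th17 cells as its question. In the group called A.G.-ES, sheep had this embedding at ST36 on both sides before they were bled. In the other group, sheep were left untreated. Mononuclear cells of peripheral blood entered the libraries fresh, without culture. Each group is 1 library, and the labels do not give the number, age or sex of the animals behind it, so differences between the libraries have no replicate check and no test was made.

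GATA3 is the transcription factor that directs CD4 T cells to the Th2 fate, and it is also needed for T-cell development and maintenance, so its presence alone does not define Th2 cells. CCR7 is the chemokine receptor that brings naive and central memory T cells into lymph nodes, and its loss marks effector memory cells that home to tissues. FOXP3 is the factor of regulatory T cells, which can carry GATA3 as well.

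Members held 5639537 UMIs in the A.G.-ES library and 1663857 in the untreated library, with medians of 4674 and 5166.5 UMIs per barcode. Ribosomal protein genes made up 22.7% of their UMIs under A.G.-ES and 18.2% in untreated blood, and the median mitochondrial share was 2.18% and 1.33%. Transcripts of Y-linked genes reached 16.3 counts per 1000000 UMIs (CPM) in A.G.-ES members and 1103 CPM in untreated members, so the sex make-up of the animals and the treatment cannot be told apart. Barcode sequences found in both libraries numbered 61, and none was a member in both. The level of a gene is given below as its UMIs summed over a population's barcodes, in CPM, and intervals are exact 95% intervals that cover counting error only.

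The members carried the RNAs that their name implies. CD4 stood at 391 CPM in A.G.-ES members and 353 CPM in untreated members, and CD3E, a chain of the T-cell receptor complex, at 1319.8 and 1206 CPM. CD3E was seen in 99.0% of A.G.-ES members and 99.3% of untreated members, and CD4 in 0.938% and 0.190% of B barcodes. These values follow from the selection and describe it, as do those of GATA3 below. GHR and BATF3 had been picked as marks of these cells from the same libraries, so their levels are a description as well.

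Most members carried GATA3 well above the single UMI required. Among A.G.-ES members the median was 5.5 GATA3 UMIs, the middle range 2 to 10 and the highest 47, and among untreated members the median was 6, the middle range 3 to 12 and the highest 37. Just inside the threshold lay 179 A.G.-ES and 29 untreated members with 1 UMI, whereas 843 and 233 had 3 or more. Just outside it lay 333 A.G.-ES and 58 untreated barcodes of the same kind with no GATA3 UMI. Summed GATA3 was 1429 CPM in A.G.-ES members and 1465 CPM in untreated members. FOXP3-positive CD4 T barcodes had more, at 1848 and 2079 CPM, and T barcodes with 3 or more UMIs of SOX13 and RHEX (here SOX13-high T) had 1197 and 907 CPM. B barcodes, which should lack it, had GATA3 in 4.53% of A.G.-ES and 2.54% of untreated barcodes at median depths of 5556.5 and 8949 UMIs, or 7.64 and 3.37 CPM.

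**Figure D1:**
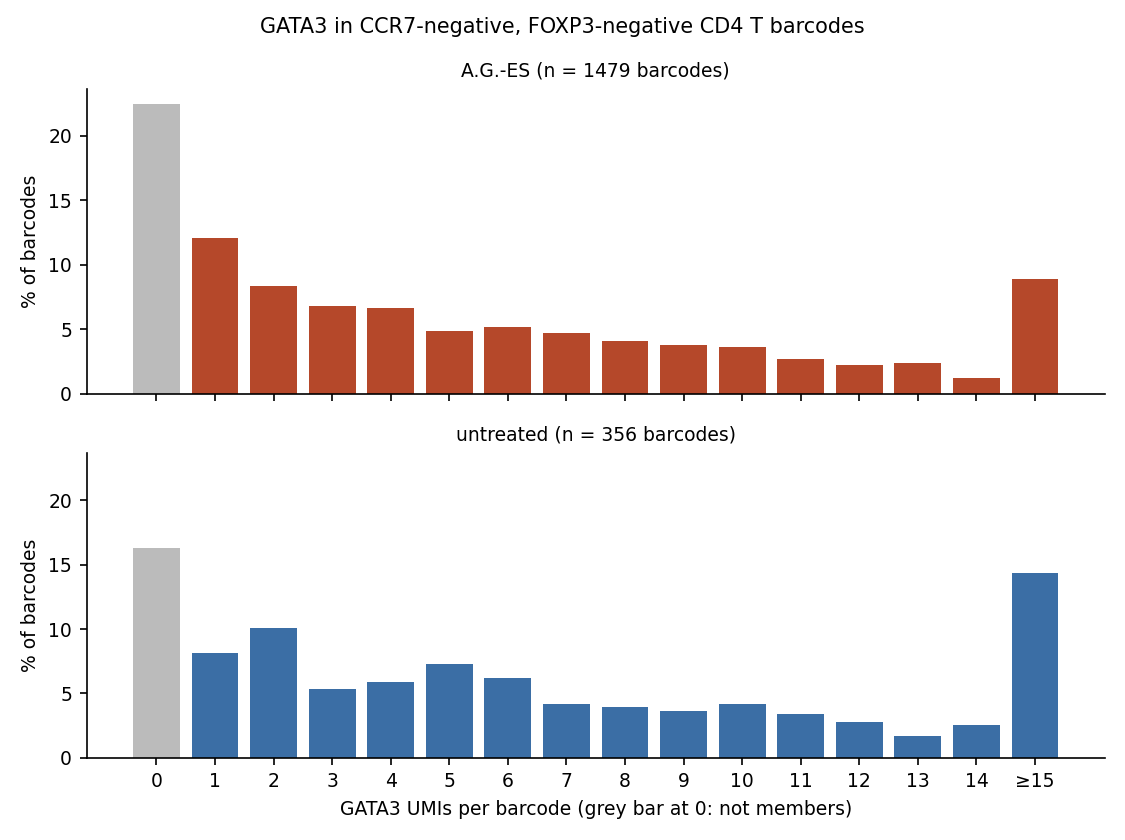
Share of CCR7-negative, FOXP3-negative CD4 T barcodes (%, vertical axis) by their number of GATA3 UMIs (horizontal axis), for the 1479 barcodes of the A.G.-ES library above and the 356 of the untreated library below. The grey bar at 0 holds the 333 and 58 barcodes that are not members, and the last bar pools 15 UMIs or more.

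Members made up 12.1% (11.5 to 12.8) of kept barcodes in the A.G.-ES library and 3.68% (3.28 to 4.12) in the untreated library. All CD4 T barcodes that passed the same gate before CCR7, GATA3 and FOXP3 were read made up 17.4% and 5.03%. Within those 1645 A.G.-ES and 407 untreated CD4 T barcodes, members were 69.7% (67.4 to 71.9) and 73.2% (68.6 to 77.5), and these intervals overlap. The 2 libraries thus differed in how many CD4 T barcodes they held, while members took similar shares of them. CCR7-positive barcodes were 6.81% of CD4 T barcodes under A.G.-ES and 4.91% in untreated blood, CCR7-negative GATA3-negative barcodes 20.2% and 14.3%, and FOXP3-positive barcodes 3.28% and 7.62%. With every barcode reduced to 1500 UMIs before the gate, members were 5.12% of kept A.G.-ES barcodes and 1.43% of kept untreated barcodes, and 59.1% and 64.1% of CD4 T barcodes. CCR7-positive barcodes then fell to 1.84% (14 of 762) of A.G.-ES and 0.599% (1 of 167) of untreated CD4 T barcodes. Detection of CCR7 thus depended on depth, and members may carry CCR7 RNA that was not captured.

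The first comparison asked how members differed from CCR7-positive CD4 T barcodes, which passed the same gate with at least 1 CCR7 UMI and any GATA3. There were 112 of these in the A.G.-ES library and 20 in the untreated library, of which 91 and 16 had a single CCR7 UMI and 72 and 16 carried GATA3. Genes with at least 100 UMIs over the members and this comparator were compared, 5791 in the A.G.-ES library and 3065 in the untreated library, and a ratio past 1.5-fold is called higher or lower here. In members, 714 genes (12.3%) were higher and 264 (4.56%) lower under A.G.-ES, and 357 (11.6%) were higher and 231 (7.54%) lower in the untreated library. Scaling by edgeR's trimmed mean of M values (TMM), which raised the untreated log2 ratios by 0.15, gave 525 higher and 110 lower there. Of 3054 genes measured in both libraries, 77 (2.52%) were higher in both and 25 (0.819%) lower in both.

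GHR, the growth hormone receptor, led the genes ranked by the smaller of their ratios in the 2 libraries. It had 387 CPM (371 to 404) in A.G.-ES members against 67.4 CPM in A.G.-ES CCR7-positive barcodes, and 371 CPM (342 to 401) in untreated members against 38.5 CPM in untreated CCR7-positive barcodes. The folds were 5.75 (4.21 to 8.07) and 9.63 (4.40 to 26.3). The untreated comparator rests on 6 GHR UMIs and the A.G.-ES one on 40. GHR was found in 52.8% of A.G.-ES members and 41.9% of untreated members, against 12.5% and 15% of CCR7-positive barcodes and 1.41% and 0.698% of B barcodes. The transcript was spread over many barcodes, since the 10 members with the most held 8.47% of its UMIs in the A.G.-ES library and 29.0% in the smaller untreated set. FOXP3-positive CD4 T barcodes reached 508 CPM under A.G.-ES and 1501 CPM in untreated blood, so GHR was not confined to members. It was lower in CD8 T barcodes, at 74.8 and 7.12 CPM, and in SOX13-high T barcodes, at 43.5 and 5.93 CPM.

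BATF3, a basic leucine zipper factor best known in mice for the development of cross-presenting dendritic cells, had 61.5 CPM (55.2 to 68.4) in A.G.-ES members against 23.6 CPM in A.G.-ES CCR7-positive barcodes. Untreated members had 82.9 CPM (69.7 to 98.0) against 32.1 CPM in untreated CCR7-positive barcodes. Members were thus 2.61-fold (1.53 to 4.82) and 2.58-fold (1.08 to 8.08) higher, the untreated comparator holding 5 UMIs. BATF3 was seen in 19.3% of A.G.-ES members and 26.8% of untreated members, against 8.93% and 15% of CCR7-positive barcodes and 0.938% and 2.54% of B barcodes. Monocyte barcodes had 38.9 and 24.4 CPM.

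Alongside GHR and BATF3, the other 8 genes with the highest member ratios in both libraries came from several functions. ELOVL6, an enzyme that lengthens fatty acids, had 50.5 CPM in A.G.-ES members against 8.42 CPM in CCR7-positive barcodes, and 93.8 against 19.3 CPM in untreated blood, folds of 6.00 (2.54 to 18.6) and 4.87 (1.64 to 23.9). CDK14, a cyclin-dependent kinase linked to Wnt signalling, had 207 against 43.8 CPM under A.G.-ES and 135 against 12.8 CPM in untreated blood, folds of 4.72 (3.21 to 7.26) and 10.5 (2.87 to 87.1). SYTL3, a synaptotagmin-like protein of vesicle traffic, had 270 against 60.6 CPM under A.G.-ES and 371 against 109 CPM in untreated blood. The remaining genes were ZNF608 and ZNF618, 2 zinc finger genes, CPNE2, a copine that binds phospholipids, KCTD12, known as an auxiliary subunit of GABA-B receptors, and PARD3, a cell polarity protein. Their log2 ratios lay between 1.24 (PARD3) and 2.74 (ZNF608) in the A.G.-ES library and between 1.35 (KCTD12) and 2.68 (ZNF618) in the untreated library. The comparators held few of these RNAs, with 2 ZNF608 UMIs in each library and 2 of CDK14, 2 of ZNF618 and 3 each of ELOVL6 and CPNE2 in the untreated one, which makes the ZNF608 folds 6.68 (1.81 to 55.8) and 4.82 (1.30 to 40.4). Several of these RNAs were at least as high in other cell types. SOX13-high T barcodes had 502 and 524 CPM of CDK14, 407 and 667 CPM of SYTL3 and 512 and 606 CPM of KCTD12, and B barcodes had 129 and 240 CPM of ZNF608.

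**Figure D2:**
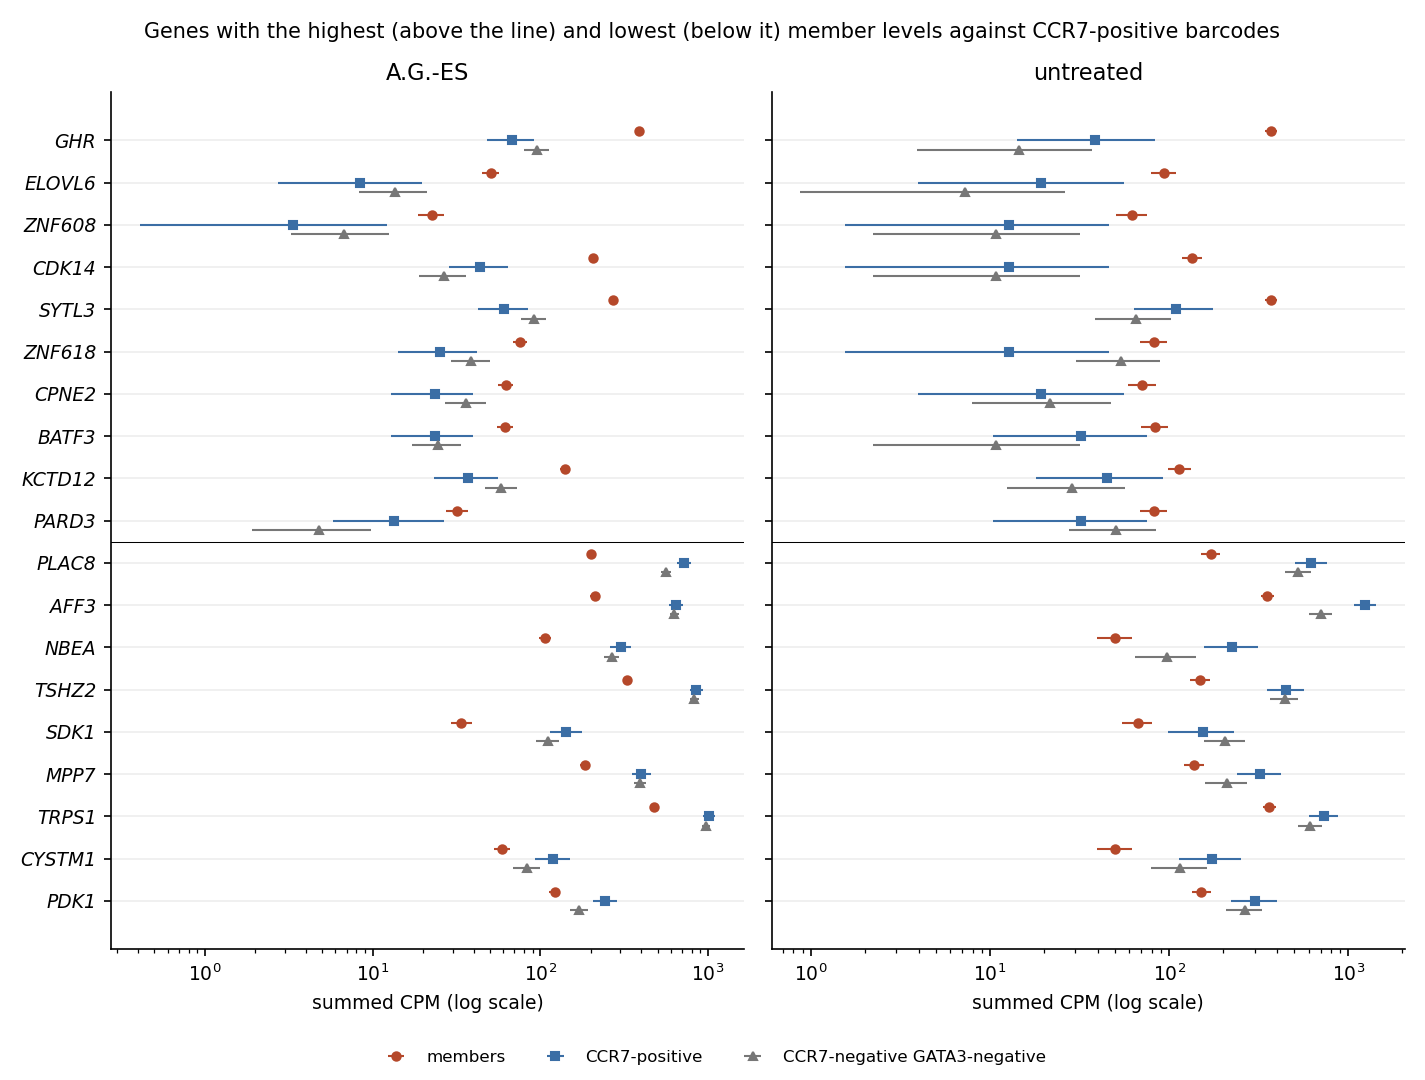
Summed level (CPM, log scale) of genes with the highest (above the line) and the lowest (below the line) member ratios against CCR7-positive barcodes, in the A.G.-ES library on the left and the untreated library on the right. Points show members, CCR7-positive and CCR7-negative GATA3-negative CD4 T barcodes, with exact 95% Poisson intervals, and the CCR7-positive intervals of low genes such as ZNF608 and CDK14 are wide.

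Among the genes that were lower in members, PLAC8, TSHZ2 and AFF3 had high levels in CCR7-positive barcodes. PLAC8, a small cysteine-rich protein, had 201 CPM in A.G.-ES members against 719 CPM in CCR7-positive barcodes, and 171 against 623 CPM in untreated blood. It was present in 28.1% of A.G.-ES members and 21.1% of untreated members, against 74.1% and 65.0% of CCR7-positive barcodes, but also in 78.6% and 87.7% of B barcodes. TSHZ2, a zinc finger homeobox gene, had 327 against 852 CPM under A.G.-ES and 148 against 449 CPM in untreated blood. TSHZ2 was seen in 33.5% of A.G.-ES and 14.1% of untreated members, against 77.7% and 30% of CCR7-positive barcodes, and in 1.09% and 0.190% of B barcodes. AFF3, a subunit of transcription elongation complexes, had 210.5 CPM in A.G.-ES members against 645 CPM, and 353 CPM in untreated members against 1239 CPM. It was high in B barcodes too, at 1340.15 and 1936 CPM. NBEA (neurobeachin), SDK1 (a cell adhesion protein), MPP7 (a scaffold protein), TRPS1 (a GATA-type repressor), CYSTM1 and PDK1 (pyruvate dehydrogenase kinase) had log2 ratios from -2.08 (SDK1) to -1.01 (PDK1 and CYSTM1) under A.G.-ES and from -2.17 (NBEA) to -0.99 (PDK1) in untreated blood.

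GATA3 itself is higher in members by construction, so the same ratios were taken against the 72 A.G.-ES and 16 untreated CCR7-positive barcodes that carried GATA3. Every gene named above for this comparison's highest and lowest ratios kept its direction there. These barcodes are a part of those on which the genes were chosen, so the kept directions follow in part from the choice. GHR had log2 ratios of 2.00 and 2.92, BATF3 of 0.93 and 1.02, PLAC8 of -1.53 and -1.57, and AFF3 of -1.49 and -1.50, in the A.G.-ES and untreated libraries. SDK1 came closest to 0, at -1.09 and -0.43, and TSHZ2 had -1.20 and -0.67.

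Genes of naive and central memory T cells were lower in members in part only. Of 14 such genes measured in the A.G.-ES library 4 were lower and 1 higher than in CCR7-positive barcodes, with a median log2 ratio of -0.33 beside 0.04 over all genes tested. Of 11 measured in the untreated library 5 were lower and none higher, with a median of -0.16 beside 0.01. LEF1, a Wnt-pathway factor of naive T cells, had 749 CPM in A.G.-ES members against 1445 CPM in CCR7-positive barcodes, and 1065 against 1861 CPM in untreated blood. Even so, 75.3% of A.G.-ES members and 86.9% of untreated members carried LEF1. FOXP1, which holds T cells in quiescence, had log2 ratios of -0.86 and -1.33 in the A.G.-ES and untreated libraries, and BACH2, a repressor of effector genes, of -0.77 and -0.67. TCF7, the partner of LEF1, had -0.49 and -0.16, and IL7R, the interleukin-7 receptor of long-lived T cells, had 0.21 and 0.20. IL7R was seen in 96.4% of A.G.-ES members and 96.3% of untreated members.

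Genes of effector memory cells were higher in members of the A.G.-ES library, with 8 of 16 higher than in CCR7-positive barcodes and none lower (median log2 ratio 0.58), beside 12.3% higher and 4.56% lower among all genes. In the untreated library 2 of 14 were higher and none lower (median 0.24), a share near the 11.6% of all genes there. ITGB1, the beta-1 integrin chain of tissue-homing cells, had log2 ratios of 0.73 and 0.35, ANXA1, an annexin, 0.72 and 0.03, LGALS1, the lectin galectin-1, 0.53 and 1.21, and CD44, a hyaluronan receptor, 0.56 and 1.12. Among transcription factors of effector cells 6 of 15 were higher and 1 lower under A.G.-ES, and 5 of 14 higher and 1 lower in untreated blood, beside 12.3% and 11.6% of all genes higher. BATF3, picked as a mark of these cells from the same libraries, is among the higher genes in each count. HOPX, an atypical homeodomain protein, had 1.99 and 0.92, RUNX3 had 0.69 and 0.79, and ZEB2 had 1.69 and 0.33. These factors are also known from cytotoxic cells, and the 10 markers of CD8 T and natural killer cells summed to 361 CPM in A.G.-ES members against 131 CPM in their CCR7-positive barcodes, with all 4 markers that were measured higher (median log2 ratio 1.82). In untreated blood they summed to 82.3 against 70.6 CPM. Members and comparator barcodes that carried 3 or more UMIs of these or of monocyte markers were then left out. The factors were higher in 6 of 15 and lower in 1 under A.G.-ES. HOPX had log2 ratios of 1.89 and 1.85, RUNX3 of 0.69 and 1.00, and ZEB2 of 1.96 and 0.71. The untreated comparator then held 4 HOPX UMIs instead of 11 (ratio 3.60, 1.38 to 13.3). Barcodes with fewer than 3 such UMIs stayed in, and the part of cytotoxic cells in these ratios was not tested. NR3C1, the glucocorticoid receptor, was higher in both libraries, at 1.00 and 1.18.

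Of the Th2 list 9 genes were measured against CCR7-positive barcodes in the A.G.-ES library, where 6 were higher and none lower (median log2 ratio 0.90). Among all genes there 12.3% were higher and 4.56% lower. Only 3 Th2 genes were measured in the untreated library, where none was higher and IL17RB was lower. The rise under A.G.-ES was not particular to the Th2 list. Regulatory T-cell genes were higher in 5 of 10 and lower in 1 (median 0.72). Costimulatory and inhibitory receptors were higher in 6 of 11 and lower in 1 (median 0.76). In untreated blood these 2 lists had 2 of 5 and 1 of 5 genes higher, with 1 lower in each. IL1RL1, the interleukin-33 receptor, had 107 UMIs (19.0 CPM) in A.G.-ES members and 1 UMI in their CCR7-positive comparator, and 85 UMIs (51.1 CPM) against 5 UMIs in untreated blood. IL17RB, the receptor of interleukin-25, had 156 UMIs (27.7 CPM) against 1 UMI under A.G.-ES, a log2 ratio of 4.04 (ratio 16.4, 2.90 to 653). In untreated blood it had 114 UMIs (68.5 CPM) in members and 19 UMIs (122 CPM) in 6 of the 20 CCR7-positive barcodes, a log2 ratio of -0.83. IL4R, a chain of the interleukin-4 and interleukin-13 receptors, had 0.90 and 0.37, and the Th2 and regulatory cell chemokine receptor CCR8 had 114 UMIs in A.G.-ES members against 3 in CCR7-positive barcodes. The type 2 cytokines were almost absent from members, with IL4 at 2 and 1 UMIs, IL5 at 1 and 0, and IL13 at 1 and 3 in the A.G.-ES and untreated libraries.

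**Figure D3:**
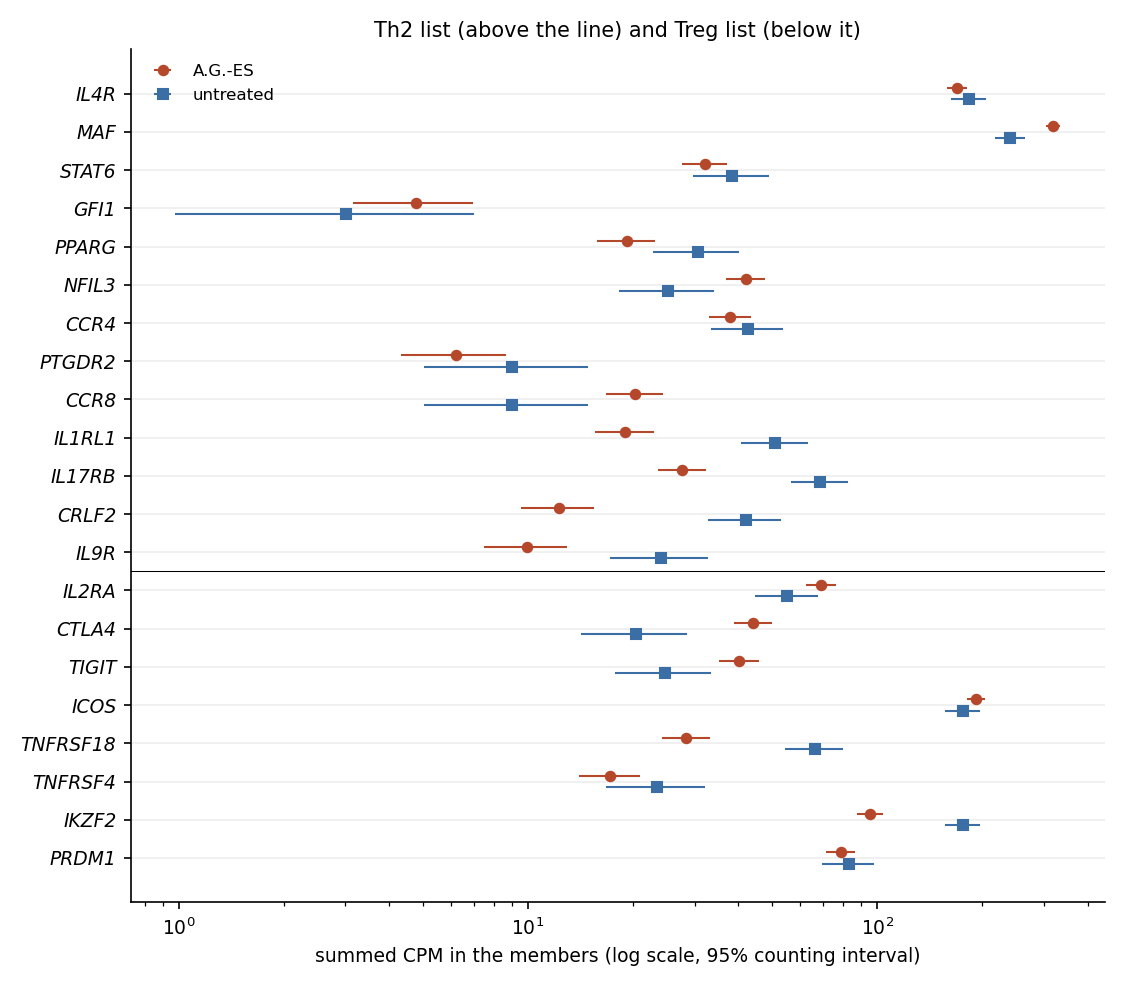
Summed level (CPM, log scale) of genes of the Th2 list (above the line) and the regulatory T-cell list (below the line) in A.G.-ES and untreated members, with exact 95% Poisson intervals. IL1RL1, IL17RB and CRLF2 lie higher in untreated members, and CCR8, CTLA4 and TIGIT higher in A.G.-ES members.

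The second comparison set members beside the CCR7-negative barcodes just outside the GATA3 threshold, 333 in the A.G.-ES library and 58 in the untreated library. Of 6155 genes measured under A.G.-ES 306 (4.97%) were higher in members and 223 (3.62%) lower, and of 3195 in untreated blood 356 (11.1%) were higher and 170 (5.32%) lower. In both libraries 72 of 3183 genes (2.26%) were higher and 20 (0.628%) lower. IL17RB had no UMI in either set without GATA3, against 156 and 114 UMIs in A.G.-ES and untreated members, which makes it at least 3.76 and 2.66 log2 units higher in members at a floor of 3 UMIs per set. GHR had 387 CPM in A.G.-ES members against 95.2 CPM, and 371 CPM in untreated members against 14.4 CPM (4 UMIs), log2 ratios of 2.02 and 4.68. CDK14 had 2.96 and 3.64, ELOVL6 1.89 and 3.70, ZNF608 1.73 and 2.51, and BATF3 1.33 and 2.94.

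CCR7 did not separate these sets. The 5 genes ranked lowest in members here were all among those named above, but both comparisons share the same members, so their rankings are not independent. PLAC8 had 561 and 527 CPM in the A.G.-ES and untreated barcodes without GATA3, and TSHZ2 829.7 and 440.5 CPM. Against members the log2 ratios of PLAC8 were -1.48 and -1.63, those of TSHZ2 -1.34 and -1.57, those of SDK1 -1.71 and -1.63, those of AFF3 -1.58 and -0.99, and those of NBEA -1.31 and -0.97. Of naive-cell genes 1 of 14 was lower under A.G.-ES (median log2 ratio -0.29) and 1 of 11 in untreated blood (median 0.19). Effector memory genes were higher in 4 of 16 (median 0.36) under A.G.-ES, beside 4.97% of all genes, and in 6 of 14, with 1 lower (median 0.50), in untreated blood, beside 11.1%. LGALS1 had 205 CPM in A.G.-ES members against 70.7 CPM in those without GATA3, and 430.3 against 46.9 CPM in untreated blood. Of the Th2 list 5 of 9 genes were higher under A.G.-ES (median 0.65) and 1 of 3 in untreated blood, CCR4, the receptor for CCL17 and CCL22, having a log2 ratio of 1.63 under A.G.-ES. Regulatory T-cell genes were higher in 5 of 10 and lower in 1 (median 0.71) under A.G.-ES, and higher in 1 of 5 in untreated blood.

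Members differed among themselves by how much GATA3 they carried. To compare them at 1 depth each member was reduced to 1500 UMIs, which left out 11 A.G.-ES and 3 untreated members, and grouped by its remaining GATA3 UMIs into 0, 1, 2 and 3 or more, with 253, 288, 168 and 426 A.G.-ES members and 54, 75, 51 and 115 untreated members. GHR ran 258, 278, 504 and 569.6 CPM in A.G.-ES members and 272, 311, 497 and 649 CPM in untreated members. BATF3 ran 39.5, 44.0, 51.6 and 67.3 CPM in A.G.-ES members and 24.7, 62.2, 118 and 133 CPM in untreated members. IL17RB ran 2.64, 6.94, 31.7 and 50.1 CPM in A.G.-ES members and 24.7, 35.6, 65.4 and 122 CPM in untreated members. All 3 genes were lowest in the members left with no GATA3 UMI and highest in those with the most.

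Of the genes lower in members than in CCR7-positive barcodes, AFF3, PLAC8 and TSHZ2 were lower in the last of these steps than in the first. AFF3 stood at 429.5, 213, 75.4 and 70.4 CPM in A.G.-ES members and at 580.2, 471, 327 and 220.3 CPM in untreated members. PLAC8 stood at 369, 236, 246 and 100.2 CPM in A.G.-ES members and at 383, 213, 52.3 and 46.4 CPM in untreated members. TSHZ2 stood at 538, 419, 234 and 211 CPM in A.G.-ES members and at 333, 338, 0 and 5.80 CPM in untreated members. LEF1, in contrast, ran 951, 794, 675 and 598 CPM under A.G.-ES but 1209.9, 1156, 849.7 and 1089.9 CPM in untreated blood, where the lowest value was not in the last step. CYSTM1 and NBEA also lacked this order in untreated members, with 1 and 3 UMIs in the first step and 13 and 11 UMIs in the last.

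**Figure D4:**
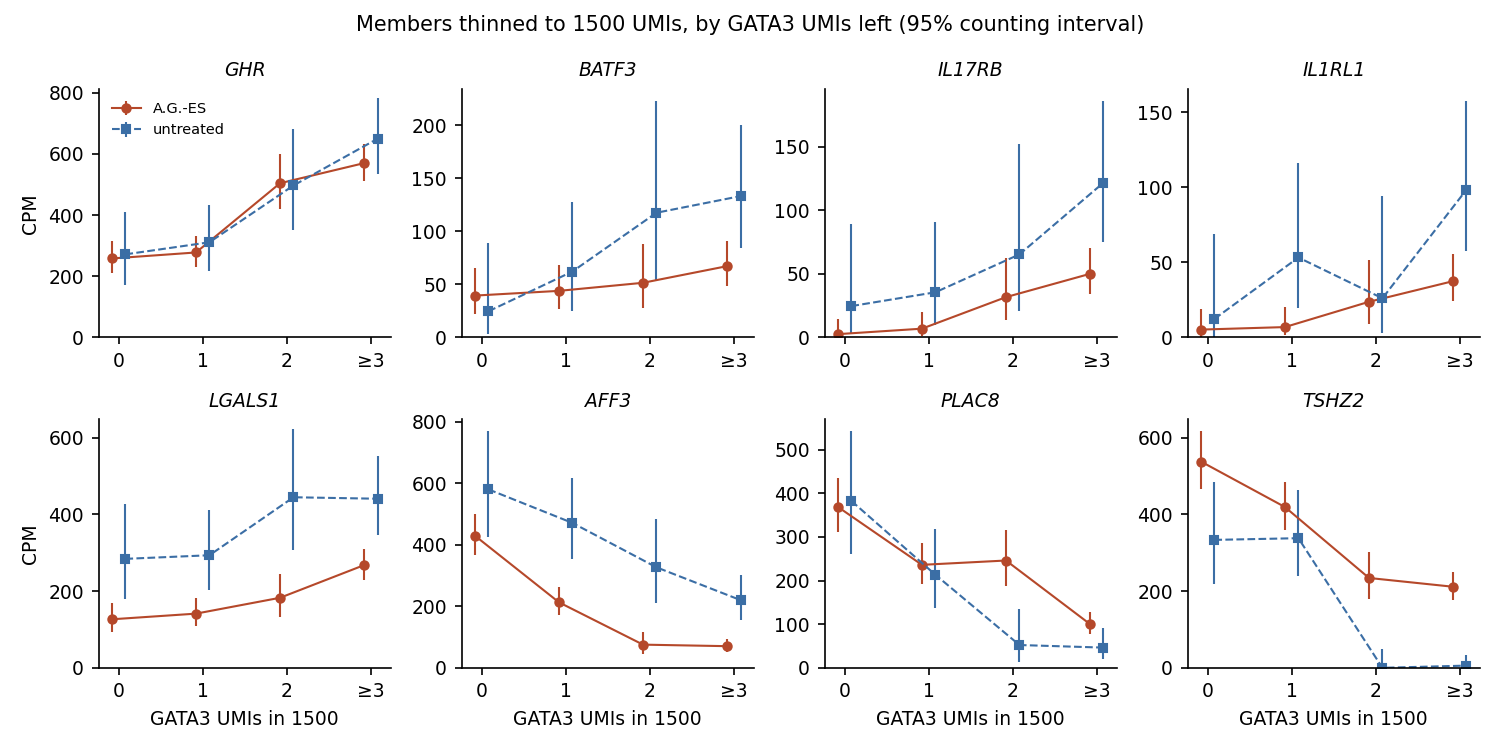
Level (CPM, linear scale from 0) of 8 genes in members grouped by GATA3 UMIs after each barcode was reduced to 1500 UMIs, for A.G.-ES and untreated members, with exact 95% Poisson intervals. GHR, BATF3, IL17RB, IL1RL1 and LGALS1 are higher, and AFF3, PLAC8 and TSHZ2 lower, in members with 3 or more GATA3 UMIs than in those with none.

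GHR also divided the members at equal depth. It was detected in 380 of 1135 A.G.-ES members and 82 of 295 untreated members. AFF3 was seen in 7.89% of A.G.-ES members with GHR against 20% of those without, and in 13.4% against 29.6% of untreated members. PLAC8 was seen in 8.16% against 20.7% under A.G.-ES and in 4.88% against 14.6% in untreated blood. TSHZ2 was seen in 17.4% against 27.0% under A.G.-ES, and in untreated blood in 0 of 82 members with GHR, where 3 barcodes would be a share of 3.66% with a UMI at this depth, against 12.2% of those without. PRDM1, the Blimp-1 repressor of terminal effector cells, was seen in 16.6% of A.G.-ES members with GHR against 8.87% of those without, and in 13.4% against 7.04% in untreated blood. IL1RL1 likewise was seen in 4.47% (2.63 to 7.07) against 1.85% (1.02 to 3.09) under A.G.-ES and in 13.4% against 4.69% in untreated blood. Its A.G.-ES intervals overlap, unlike those of AFF3, PLAC8, TSHZ2 and PRDM1 under A.G.-ES.

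BATF3 was detected at equal depth in 78 A.G.-ES and 35 untreated members. GHR was seen in 43.6% (32.4 to 55.3) of A.G.-ES members with BATF3 against 32.7% (29.9 to 35.7) of those without, and these intervals overlap. In untreated blood it was seen in 48.6% against 25%. ICOS, a costimulatory receptor, ran the other way, at 5.13% against 21.9% under A.G.-ES and at 8.57% against 28.1% in untreated blood. S100A4, a calcium-binding protein of memory cells, was seen in 48.7% against 32.5% under A.G.-ES and in 54.3% against 34.6% in untreated blood, which GHR did not share. S100A4 was seen in 33.4% of A.G.-ES members with GHR against 33.6% of those without, and in 28.0% against 40.4% in untreated blood.

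At equal depth most members showed few of the 10 genes with the highest ratios. At 1500 UMIs a mean of 1.36 of the 10 genes was detected per A.G.-ES member and 1.64 per untreated member, against 0.366 and 0.650 per CCR7-positive barcode. The 10 genes were chosen on these same barcodes, so the direction of that gap follows from the choice. None of the 10 was seen in 31.1% of A.G.-ES and 23.1% of untreated members. SOX13-high T barcodes had means of 1.68 and 1.89, so the set as a whole was not confined to members.

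The third comparison set A.G.-ES members beside untreated members. Of 6290 genes measured 372 (5.91%) were higher and 872 (13.9%) lower in A.G.-ES members, with a median log2 ratio of -0.17. TMM scaling raised every log2 ratio by 0.19 and gave 637 higher and 419 lower, and DESeq2 size factors raised them by 0.18 and gave 603 higher and 444 lower, so which direction held more genes depended on the scaling. GATA3 had a ratio of 0.975 (0.932 to 1.02) and GHR of 1.04 (0.955 to 1.14), and both intervals include 1. With TMM scaling the ratios were 1.11 (1.06 to 1.17) for GATA3 and 1.19 (1.09 to 1.31) for GHR, so GATA3 turned direction and neither interval included 1. BATF3 had a log2 ratio of -0.43.

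Th2 genes split within the members. Of 10 measured 2 were higher and 4 lower in A.G.-ES members, beside 5.91% higher and 13.9% lower among all genes. The median log2 ratio was -0.22 beside the -0.17 of all genes. With TMM scaling 3 Th2 genes were higher and 3 lower (median -0.02). IL1RL1 had 19.0 CPM in A.G.-ES members and 51.1 CPM in untreated members, a ratio of 0.371 (0.277 to 0.500), and IL17RB had 27.7 and 68.5 CPM, a ratio of 0.404 (0.315 to 0.519). CRLF2, the receptor of thymic stromal lymphopoietin, had 12.2 and 42.1 CPM, a ratio of 0.291 (0.205 to 0.411). These 3 receptors for alarmin and type 2 cytokines were detected in 6.28%, 8.12% and 4.97% of A.G.-ES members and in 16.4%, 16.4% and 17.4% of untreated members, and in at most 3.75% of B barcodes of either library. A list of 7 markers of group 2 innate lymphoid cells holds all 3. It summed to 69.0 and 183 CPM in A.G.-ES and untreated members, but to 106 and 280 CPM in FOXP3-positive CD4 T barcodes. There IL1RL1 gave 18 of its 30 A.G.-ES UMIs, and KIT 20 of its 44 untreated UMIs. The list was thus not confined to members. PPARG, a nuclear receptor, was the fourth lower gene at -0.68. CCR8 had 20.2 and 9.02 CPM, a ratio of 2.24 (1.30 to 4.14), and NFIL3, a basic leucine zipper factor, 42.0 and 25.2 CPM, a ratio of 1.66 (1.20 to 2.37). MAF, the factor of interleukin-4 expression, had 0.41, IL4R -0.11 and CCR4 -0.17, of which the last 2 turn positive with TMM scaling.

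Genes of the other helper programmes differed in few members of each list. Of 6 Th1 genes 2 were higher and none lower in A.G.-ES members, with a median log2 ratio of 0.28, beside 5.91% higher and 13.9% lower among all genes. CXCR3, the Th1 chemokine receptor, had 19.9 CPM in A.G.-ES and 8.41 CPM in untreated members, and TNF 18.6 and 6.61 CPM, whereas IFNG had 14 and 5 UMIs in all. Markers of CD8 T and natural killer cells were higher in A.G.-ES members as well, at 361 against 82.3 CPM. Without members that carried 3 or more UMIs of these or of monocyte markers, CXCR3 had 91 and 6 UMIs (ratio 4.80, 2.12 to 13.4). TNF had 85 and 11 UMIs (ratio 2.45, 1.30 to 5.09), and both were then under the count minimum. None of the other 4 Th1 genes was past 1.5-fold there. Of 7 Th17 genes none was higher and 2 were lower, with a median of -0.46. With TMM scaling none of the Th17 genes was higher and 1 was lower (median -0.27). RORA, an orphan nuclear receptor of Th17 and innate lymphoid cells, had 1541 and 2722 CPM, and BATF had a log2 ratio of -0.62. IL17A, the cytokine that gives Th17 cells their name, had no UMI in A.G.-ES or untreated members, which allows up to 0.532 and 1.80 CPM.

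Regulatory T-cell genes other than FOXP3, which selection fixed at 0, went both ways. Of 10 measured 3 were higher and 3 lower in A.G.-ES members, beside 5.91% higher and 13.9% lower among all genes. Their median log2 ratio was 0.02 beside the -0.17 of all genes. CTLA4, an inhibitory receptor, had 44.2 CPM in A.G.-ES and 20.4 CPM in untreated members, a ratio of 2.16 (1.51 to 3.19), and TIGIT, another inhibitory receptor, 40.3 and 24.6 CPM, a ratio of 1.63 (1.17 to 2.34). CCR8, above, was the third. TNFRSF18 (the receptor GITR) had 28.4 and 66.1 CPM, IKZF2 (the factor Helios) 95.4 and 175 CPM and TGFB1 49.6 and 108 CPM. IL2RA, the high-affinity interleukin-2 receptor chain, had 69.2 and 55.3 CPM, a ratio of 1.25 (0.994 to 1.59). For scale, FOXP3-positive barcodes had 205 and 134 CPM of CTLA4 and 296 and 286 CPM of IL2RA.

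Among the other programmes, read beside 5.91% of all genes higher and 13.9% lower with a median log2 ratio of -0.17, immediate early genes were higher in 6 of 15 and lower in none (median log2 ratio 0.37), and genes of the AP-1 and BATF family higher in 4 of 7 and lower in 1 (median 0.73). FOS had 138 CPM in A.G.-ES and 49.3 CPM in untreated members, JUN 319 and 177 CPM, and DUSP2, a phosphatase induced on activation, 128 and 30.1 CPM. The DUSP2 difference was not particular to members in size, with log2 ratios of 2.09 in members, 2.27 in CCR7-positive barcodes and 2.56 in CCR7-negative GATA3-negative barcodes. The lists were not compared between the libraries outside the members. Genes of the interferon response were higher in none of 16 and lower in 4 (median -0.49), among them MX1 at -0.85 and XAF1 at -1.09. With TMM scaling 1 interferon gene was higher and 2 were lower (median -0.30). Of 12 genes of TGF-beta signalling none was higher and 5 were lower (median -0.41), with ACVR1 at -1.25 and SMAD3 at -0.97. Of 17 effector memory genes none was higher and 4 were lower (median -0.19), close to all genes, and with TMM scaling 1 was higher and 3 were lower (median 0.0045). Of these genes LGALS1 stood at 205 CPM in A.G.-ES and 430.3 CPM in untreated members and ITGB1 at 1169 and 2374 CPM. ITGB1 was lower in A.G.-ES barcodes of all 3 CD4 T sets, with log2 ratios of -1.02 in members, -1.40 in CCR7-positive and -1.20 in CCR7-negative GATA3-negative barcodes. Among effector-cell factors TOX, a regulator of exhausted and follicular T cells, had 208 and 674 CPM, and ZEB2, a repressor of terminal effector cells, 92.2 and 243 CPM.

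Of the 10 genes with the highest ratios in A.G.-ES members, 4 are known from other blood cells. GNLY, the cytotoxic protein granulysin, had 171 CPM in A.G.-ES members and 9.62 CPM in untreated members (log2 ratio 4.15), but 10 members held 71.9% of its 964 A.G.-ES UMIs, and CD8 T barcodes had 5676 and 4475 CPM. VCAN, a proteoglycan of monocytes, had 170 UMIs in 25 A.G.-ES members and none in untreated members, S100A8, a monocyte and neutrophil calcium-binding protein, 112 and 2 UMIs, and the chemokine CXCL8 273 and 6 UMIs. In monocyte barcodes VCAN had 3256 and 4691 CPM. Over whole marker lists, the 10 monocyte markers summed to 86.5 CPM in A.G.-ES members (1 of 10 at 0) and 3.01 CPM in untreated members (7 of 10 at 0), and the 10 markers of CD8 T and natural killer cells to 361 and 82.3 CPM (none at 0 in either). Members with 3 or more UMIs of these lists were 114 (9.95%) under A.G.-ES and 12 (4.03%) in untreated blood. Without these members the log2 ratio of GNLY was 1.76, that of CXCL8 0.54 on 28 UMIs and that of VCAN at least 0.84 on 17 UMIs. That of S100A8 was -0.66 on 6 UMIs. GNLY, VCAN and S100A8 are themselves on the lists that set this removal, so the fall of their counts follows from it. The part of these members in results for which no such value is given was not tested.

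The other 6 genes were spread over many members. COX3, a mitochondrially encoded subunit of cytochrome c oxidase, had 2317 CPM in A.G.-ES members and 204 CPM in untreated members, an 11.3-fold difference (10.2 to 12.7). It was as far apart in B barcodes, at 1844 and 177 CPM, and in monocyte barcodes, at 3707 and 274 CPM, so the difference was not confined to members. LUZP2, a leucine zipper protein, was found in 203 A.G.-ES members and 5 untreated members and likewise in 27.0% and 7.27% of B barcodes. GIMAP8, a GTPase of lymphocytes, had 20.6 and 1.20 CPM, a ratio of 17.1 (4.63 to 143) on 116 and 2 UMIs, and was seen in 7.94% and 0.671% of members, against 0.938% and 0.0317% of B barcodes. PRLH, the gene of prolactin-releasing hormone, had 147 UMIs in 101 A.G.-ES members and none in untreated members, at least 14.5-fold, and 59.3 and 0.414 CPM in SOX13-high T barcodes. LITAF, an endosomal membrane protein, had 27.7 and 1.80 CPM, a ratio of 15.3 (5.15 to 75.2), and ABCA13, a lipid transporter, 36.0 and 3.01 CPM. In the A.G.-ES library ABCA13 had 51.0 CPM in CCR7-negative GATA3-negative and 38.7 CPM in CCR7-positive barcodes against 6.91 CPM in CD8 T and 0.259 CPM in B barcodes.

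**Figure D5:**
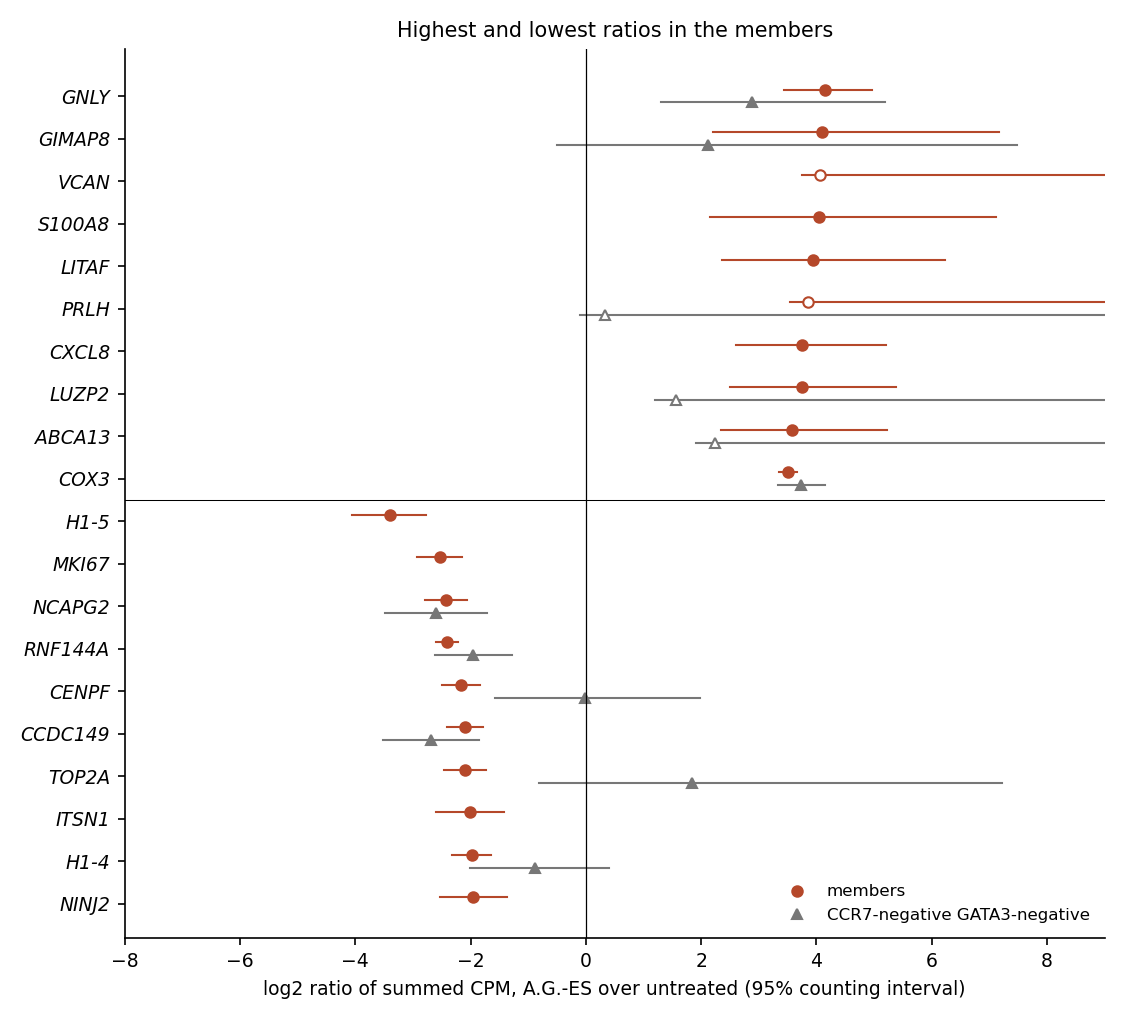
Log2 ratio of A.G.-ES over untreated levels for the 10 genes with the highest and the 10 with the lowest ratios in members, in members and in CCR7-negative GATA3-negative CD4 T barcodes, with exact 95% intervals. Open markers are bounds where 1 library had no UMI, and lines that reach the right edge have no upper limit. COX3, NCAPG2, RNF144A and CCDC149 differ alike in both sets.

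Of the 10 genes lowest in A.G.-ES members, 6 belong to dividing cells or their chromatin. MKI67, the proliferation marker, had 15.4 CPM in A.G.-ES members and 89.6 CPM in untreated members (log2 ratio -2.54), TOP2A, topoisomerase II, 19.9 and 84.7 CPM, CENPF, a centromere protein, 25.2 and 113 CPM, and the condensin gene NCAPG2 18.4 and 99.2 CPM. The linker histones H1-5 and H1-4 had log2 ratios of -3.39 and -1.98. Most of the MKI67 RNA came from few members: the 10 highest held 88.5% of MKI67 UMIs in A.G.-ES and 91.9% in untreated members. Members with 2 or more UMIs of cell division genes were 35 (3.05%) under A.G.-ES and 36 (12.1%) in untreated blood. MKI67 was also lower in CD8 T barcodes of the A.G.-ES library, at 38.9 against 402 CPM, and in its B barcodes, at 4.92 against 69.2 CPM. Over the list of 9 cell division genes measured, none was higher and 6 were lower, beside 5.91% higher and 13.9% lower among all genes. Their median log2 ratio was -0.61, or -0.13 without the members with 2 or more such UMIs. MKI67, TOP2A, CENPF and the other genes that set this filter are on the list. Their lower counts without these members thus follow from the filter. Without these members the log2 ratios were -0.38 for H1-5 (24 UMIs), -1.97 for MKI67 (18 UMIs), -0.80 for TOP2A (26 UMIs), -1.63 for CENPF (34 UMIs) and -0.71 for H1-4, while NCAPG2 had -2.42.

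The remaining 4 low genes were less concentrated. RNF144A, a ubiquitin ligase, had 63.1 CPM in A.G.-ES members and 336 CPM in untreated members, a ratio of 0.188 (0.164 to 0.215), and was seen in 14.6% and 41.3% of them. It was lower under A.G.-ES in B barcodes as well, at 33.4 against 111 CPM. CCDC149, a coiled-coil protein, had 27.5 and 118 CPM and was seen in 9.16% and 30.5% of members. NINJ2, the adhesion protein ninjurin 2, had 8.69 and 33.7 CPM, and ITSN1, an endocytic scaffold, 8.33 and 33.7 CPM.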

How the data were processed

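UMI counts per gene and barcode were deposited by the authors for 1 library of each group, which was prepared with the SeekOne DD 3′ kit, per the labels' protocols. The aligner, counter, genome build and cell calling were not given in the sources used here, and 0 other columns were set aside. All 26814 gene names matched a RefSeq table, used for Y-linked and mitochondrial genes.

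Barcodes were kept with at least 200 genes and at most 15% UMIs from 13 mitochondrially encoded genes. The members and the 32 gene lists were chosen with earlier results of these data known. UMIs were summed over each population and scaled to 1000000 (CPM). Poisson intervals for levels, conditional binomial intervals for ratios and Clopper-Pearson intervals for shares (95%, scipy 1.17.1) cover counting error only, since reads of 1 library are no replicates. Genes with at least 100 UMIs over both sums were compared, and 1.5-fold set a call. Against a sum of 0, a floor of 3 UMIs over the population gave a bound. B and monocyte barcodes had at least 3 UMIs of their markers and no CD3, and CD8 T barcodes at least 2 CD8A and CD8B UMIs. Genes of the rule were left out of list counts.

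Named genes had a symbol and, among those past the count minimum, the 10 highest and 10 lowest ratios between libraries, or between members and CCR7-positive barcodes by the smaller ratio of the 2 libraries, and 5 of each against GATA3-negative barcodes. Some genes that the rule or the lists hold are not reported here. The best counted members of the lists were added, and some of these were chosen after their values were seen. Doublets were kept, and removing the highest Scrublet scores (scanpy 1.11.5, 0.8% per 1000 barcodes) was an alternative, as were edgeR 4.0.16 TMM and DESeq2 1.42.0 size factors, count minimums of 30, 300 and none, other gates and thinning to 1500 or 1000 UMIs. The ratios and intervals were tested on simulated counts, and the gate was not. Python 3.11.15, numpy 2.4.6 and R 4.3.3 were used.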

Additional observations from a re-analysis of the deposited data

Results flagged for a closer look

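IL17RB was higher in members than in CCR7-positive barcodes of the A.G.-ES library (log2 ratio 4.04, 156 against 1 UMIs) and lower in the untreated library (-0.83, 114 against 19 UMIs, those 19 in 6 of 20 barcodes). Cell division genes also ran opposite ways in the 2 libraries against CCR7-positive barcodes. CENPF had log2 ratios of 1.90 under A.G.-ES and -1.29 in untreated blood, TOP2A had 1.97 (112 against 3 UMIs) and -1.36, and MKI67 had at least 1.61 and -1.33. In the untreated library 1 CCR7-positive barcode of 20 held all 34 TOP2A UMIs and 1 barcode held 32 of 35 MKI67 UMIs. VCAN, a monocyte gene, was higher under A.G.-ES than untreated in members (at least 4.06, 170 against 0 UMIs) and lower in CCR7-positive barcodes (-2.28, 18 UMIs in 2 barcodes against 23 UMIs in 1). None of these differences between ratios was tested, as each group is 1 library.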

How the results depend on the processing

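No paired analysis was possible because each group is 1 library. Numbers below are higher and lower genes unless stated, and the cause of a move was not tested beyond what each setting's construction fixes, such as fewer or more genes tested.

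For A.G.-ES over untreated members they were 637 and 419 with TMM, 603 and 444 with DESeq2 size factors, 937 and 1503 at a count minimum of 30, 146 and 439 at 300, 1604 and 2927 with no minimum, and 181 and 501 with members thinned to 1500 UMIs. For members over CCR7-positive barcodes in the A.G.-ES library they were 1221 and 848 against barcodes with at least 2 CCR7 UMIs, 1611 and 694 at a minimum of 30, 213 and 77 at 300, 1897 and 1941 with none, and 383 and 164 thinned. In the untreated library they were 772 and 649, 1038 and 876, 80 and 43, 1369 and 2556, and 147 and 66 in that order, with 110 lower by TMM and 119 lower by DESeq2. In both libraries they were 187 and 121, 245 and 83, 25 and 8, 339 and 460, and 31 and 8 in that order.

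For members over CCR7-negative GATA3-negative barcodes they were 880 and 576 at a minimum of 30, 97 and 75 at 300, and 1610 and 1876 with none in the A.G.-ES library, with 152 higher when thinned. In the untreated library they were 984 and 720, 85 and 32, and 1531 and 2418 in that order, with 75 and 66 thinned. In both they were 178 and 64, 26 and 10, and 283 and 443 in that order, with 19 higher when thinned. Lower genes in both numbered 36 with at least 2 GATA3 UMIs, 13 with TMM, 33 with every barcode weighted alike and 31 without cycling members.

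Members were 58.8% of A.G.-ES and 66.1% of untreated CD4 T barcodes with at least 2 GATA3 UMIs, 59.1% and 64.1% thinned to 1500 UMIs, and 50% and 52.3% thinned to 1000. Of kept barcodes they were 10.2% under A.G.-ES with at least 2 GATA3 UMIs, 11.2% and 3.25% with no SOX13, RHEX or B-cell UMI, 5.12% and 1.43% thinned to 1500 UMIs, and 2.87% and 0.736% thinned to 1000.

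TMM scaling adds 0.19 to each log2 ratio between the libraries, so values just below 0, among them GATA3, IL4R, CCR4 and the medians of the effector memory, survival, NF-kB, T-cell receptor and glycolysis lists, turn positive with it. Of values past 1.5-fold, directions turned in 7 cases. Over CCR7-positive barcodes in the untreated library CPNE2 came to -0.13 when thinned (29 UMIs) and SDK1 to 0.15 without doublets. Doublet removal took 102 A.G.-ES members (8.90%) and 4 untreated members (1.34%). S100A8 came to -0.66 without marker-carrying members (6 UMIs). Among list medians, costimulation genes over CCR7-positive A.G.-ES barcodes came to -0.011 at a minimum of 300, and cell division genes in the untreated library to 0.28 over barcodes with at least 2 CCR7 UMIs, 0.063 without cycling barcodes and, over GATA3-negative barcodes, -0.22 with no minimum. Leaving out marker-carrying or cycling barcodes was chosen after seeing the data. It lowers the counts of the filters' own genes by construction, S100A8 among them. With at least 2 CCR7 UMIs the untreated comparator falls to 4 barcodes, and there GHR had a log2 ratio of 1.89 and AFF3 of -3.30. Libraries without replicates, the 20 untreated CCR7-positive barcodes and free RNA in droplets limit all values here.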
